A study of Mus musculus with 12 samples.

Results

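The genes described here encode the machinery that lets RNA polymerase II leave the promoter and copy the body of a gene, together with subunits of the Mediator coactivator and of the polymerase itself. They are 34 named genes out of 21887 protein-coding genes, in 7 groups: the super elongation complex (Aff1, Aff4, Ell and Ell2), DSIF with SPT6 and FACT (Supt4a, Supt5, Supt6, Supt16 and Ssrp1), the negative elongation factor NELF (Nelfa, Nelfb, Nelfcd and Nelfe), the PAF1 complex (Paf1, Ctr9, Leo1, Cdc73 and Rtf1), Mediator (Med1, Med12, Med13, Med14, Med15, Med17, Med23, Med24, Med26 and Cdk8), kinases of the polymerase tail (Cdk7, Cdk12 and Cdk13) and polymerase subunits (Polr2a, Polr2b and Polr2e). A MYC or MAX peak was assigned to a gene where it shared at least 1 bp with the gene's annotated extent plus 1 kb on each side. The genes were chosen by name, with earlier results of these data known.

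The lists come from ChIP-seq, the sequencing of DNA recovered with an antibody from crosslinked chromatin, in RAW264.7, a mouse monocyte-derived line that forms osteoclasts when given the cytokine RANKL. The labels give bone marrow as its source, and peak lists hold no expression values to check cell type markers. For 4 h cells received both RANKL (50 ng/ml) and the BET inhibitor I-BET (500 nM), I-BET alone or RANKL alone at those doses, or they were left untreated. Each antibody has 1 peak list per treatment, so no difference between treatments has a replicate check and none carries a p-value. The MAX lists held 6307 peaks with RANKL and I-BET, 36785 with I-BET, 10889 with RANKL and 8839 in untreated cells, and the MYC lists held 11, 136, 299 and 312 in the same order. A peak's rank below is its place in its own list by the authors' deposited score, with 1 the highest, and ranks from lists of different length show no change between treatments. Read depth is unknown from these lists, and the 4 input libraries were not used here.

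After initiation RNA polymerase II pauses close to the start site, held there by DSIF and NELF. The kinase P-TEFb, which acts within the super elongation complex, phosphorylates both factors and the polymerase tail and releases the enzyme, which then travels with SPT6, FACT and the PAF1 complex. Mediator links DNA-bound activators to the polymerase and, through MED26, to elongation factors in human cells. I-BET compounds keep BET proteins off acetylated chromatin. MYC binds E-box DNA as a pair with MAX, and MAX also pairs with the MXD, MNT and MGA proteins, so a MAX peak does not say which partner is present.

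Promoter sequences show where the E-box CACGTG and its variant CACGCG lie at the genes the results turn on. RefSeq promoter windows (GRCm38.p6, the assembly also called mm10) run from 250 bases before to 50 after the start site and were given for 29 of the 34 genes. Ctr9, Nelfcd, Nelfe, Med23 and Med24 are named without one. The windows shown are those of the gene with a MYC peak over its promoter (Cdk7), of the other genes with the highest-ranked untreated MAX peaks (Polr2e, Cdc73 and Supt4a), and of 2 genes with a high-ranked I-BET promoter peak and no untreated one (Polr2a and Supt16, chosen after their values were seen). Each reads from 5' to 3' on the gene's strand, and capitals mark CACGTG or CACGCG. The first motif is its own reverse complement, and the other was also searched as CGCGTG, so both strands were covered.
Cdk7 (chr13:100730893-100731192, minus strand): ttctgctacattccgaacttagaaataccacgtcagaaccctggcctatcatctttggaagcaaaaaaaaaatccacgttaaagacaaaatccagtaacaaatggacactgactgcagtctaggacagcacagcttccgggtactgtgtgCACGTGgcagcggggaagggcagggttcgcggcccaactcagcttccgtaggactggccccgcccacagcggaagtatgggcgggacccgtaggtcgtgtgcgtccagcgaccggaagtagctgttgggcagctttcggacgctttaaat
Polr2e (chr10:80039610-80039909, minus strand): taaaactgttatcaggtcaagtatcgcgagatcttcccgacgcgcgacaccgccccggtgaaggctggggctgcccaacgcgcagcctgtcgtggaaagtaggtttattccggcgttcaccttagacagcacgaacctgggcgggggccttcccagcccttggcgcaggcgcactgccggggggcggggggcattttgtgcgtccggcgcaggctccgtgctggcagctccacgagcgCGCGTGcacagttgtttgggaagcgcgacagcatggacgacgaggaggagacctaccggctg
Cdc73 (chr1:143702844-143703143, minus strand): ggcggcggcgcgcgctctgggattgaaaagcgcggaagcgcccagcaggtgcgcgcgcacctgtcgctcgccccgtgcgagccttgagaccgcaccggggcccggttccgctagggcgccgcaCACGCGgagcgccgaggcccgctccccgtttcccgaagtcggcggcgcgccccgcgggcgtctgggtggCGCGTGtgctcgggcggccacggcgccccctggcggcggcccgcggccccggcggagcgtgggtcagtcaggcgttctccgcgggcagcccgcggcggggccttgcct
Supt4a (chr11:87737301-87737600, plus strand): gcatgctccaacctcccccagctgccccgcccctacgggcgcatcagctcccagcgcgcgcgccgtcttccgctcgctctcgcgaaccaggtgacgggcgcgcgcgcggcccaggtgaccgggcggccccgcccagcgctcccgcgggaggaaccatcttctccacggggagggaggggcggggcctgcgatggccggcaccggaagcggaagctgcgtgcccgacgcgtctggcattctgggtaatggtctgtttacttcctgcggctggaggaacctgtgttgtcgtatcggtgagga
Polr2a (chr11:69758584-69758883, minus strand): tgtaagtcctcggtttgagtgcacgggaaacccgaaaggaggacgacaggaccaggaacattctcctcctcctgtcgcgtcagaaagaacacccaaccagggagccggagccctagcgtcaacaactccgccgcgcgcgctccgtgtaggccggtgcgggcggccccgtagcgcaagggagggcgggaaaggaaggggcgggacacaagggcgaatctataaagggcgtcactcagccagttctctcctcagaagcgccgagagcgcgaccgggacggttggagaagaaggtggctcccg
Supt16 (chr14:52197190-52197489, minus strand): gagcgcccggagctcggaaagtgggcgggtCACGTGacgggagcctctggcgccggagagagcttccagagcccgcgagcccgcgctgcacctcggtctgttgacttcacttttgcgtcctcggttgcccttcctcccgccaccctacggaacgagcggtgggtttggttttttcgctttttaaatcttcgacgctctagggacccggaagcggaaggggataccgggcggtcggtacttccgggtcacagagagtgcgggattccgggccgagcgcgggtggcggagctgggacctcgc
Cdk7 and Supt16 each held 1 CACGTG, Cdc73 held 2 CACGCG matches and Polr2e 1, and Supt4a and Polr2a held neither. The match in Cdk7 lay 100 bp before the start site and 3.0 bp from the midpoint of the untreated MAX peak. In Polr2e it lay 12 bp before the start site and 97.0 bp from that midpoint.

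Most of these genes carried MAX. A MAX peak was listed at 19 of 34 genes with RANKL and I-BET (55.9%, exact Clopper-Pearson 95% interval 37.9 to 72.8), against 23.5% of all protein-coding genes under the same rule. With I-BET it was 34 of 34 (lower bound 89.7%), against 58.7% of all genes. With RANKL it was 25 of 34 (73.5%, 55.6 to 87.1), against 34.5%, and in untreated cells 21 of 34 (61.8%, 43.6 to 77.8), against 29.8%. These intervals cover counting error only. The genes are long, with a median extent of 38615.5 bp against 17169 bp for all genes, and a long gene offers more room for a peak. Among the 16630 genes within the same range of lengths the shares were 26.8%, 67.2%, 39.4% and 34.1% in the same order of treatments.

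The lists differ in length, and the counts move with it. With the 6307 top-ranked peaks of each MAX list, 19 genes had a peak with RANKL and I-BET, 25 with I-BET, 18 with RANKL and 19 in untreated cells. Polr2e is missing from the I-BET count because of its deposited score of 0. The shares of all genes were then 23.5%, 26.9%, 23.0% and 23.2%.

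**Figure D1:**
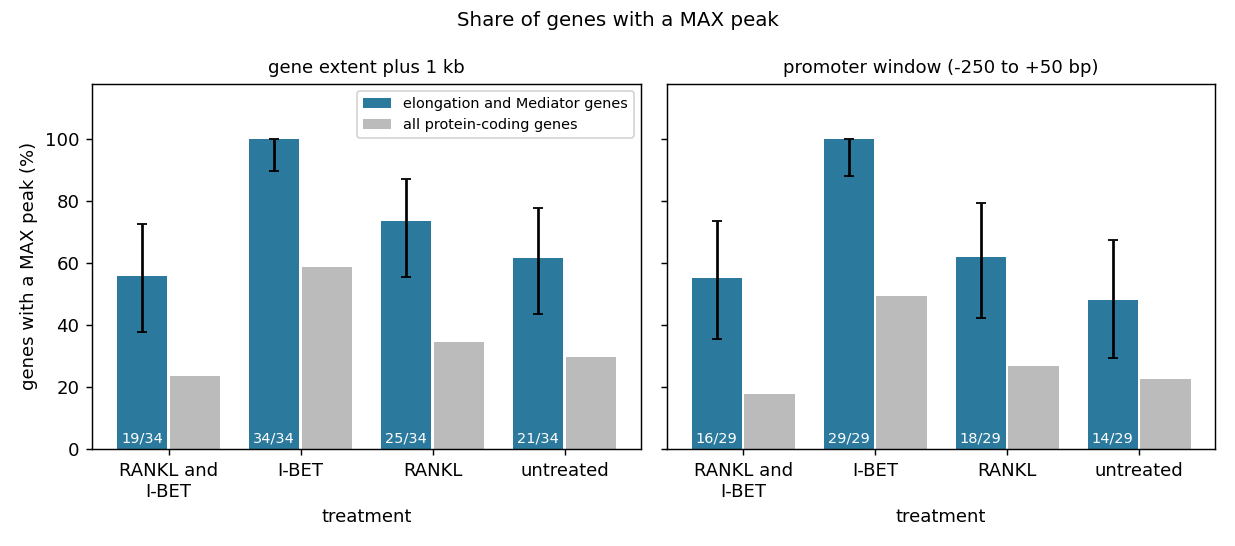
Share of genes with a MAX peak (percent) by treatment, for the elongation and Mediator genes (blue, with exact 95% intervals and counts) and for all protein-coding genes (grey), over the gene extent plus 1 kb (left) and over the promoter window (right). All 34 genes, and all 29 with a promoter window, have a MAX peak with I-BET.

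Over the promoter window, which does not grow with gene length, the counts were 16 of 29 with RANKL and I-BET, 29 of 29 with I-BET, 18 of 29 with RANKL and 14 of 29 in untreated cells. The corresponding shares of the 17492 protein-coding genes with such a window were 17.7%, 49.6%, 26.9% and 22.8%. The promoters of these genes had a median GC content of 65.5% (32 windows), against 56.3% over all windows. Over all windows the median was 61.3% for genes with an I-BET MAX peak over the promoter and 50.0% for the rest. The part of GC content in the counts was not tested.

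The 34 genes fell into 6 patterns over the 4 treatments. In all 4 lists stood 17 genes (50.0%, against 20.3% of all genes): Aff1, Aff4, Ell, Supt4a, Supt6, Ssrp1, Nelfa, Nelfe, Cdc73, Med17, Med24, Med26, Cdk8, Cdk7, Cdk13, Polr2b and Polr2e. In the I-BET list alone stood 8 (23.5%, against 20.7%): Supt5, Supt16, Nelfcd, Paf1, Ctr9, Med1, Med12 and Med14. Med13, Med15 and Med23 were listed with I-BET and with RANKL (8.82%, against 5.71%), and Nelfb and Polr2a in every list but the untreated one (5.88%, against 1.82%). Ell2, Rtf1 and Cdk12 were listed in every list but that of RANKL and I-BET (8.82%, against 6.60%), and Leo1 with I-BET and in untreated cells (2.94%, against 2.27%).

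**Figure D2:**
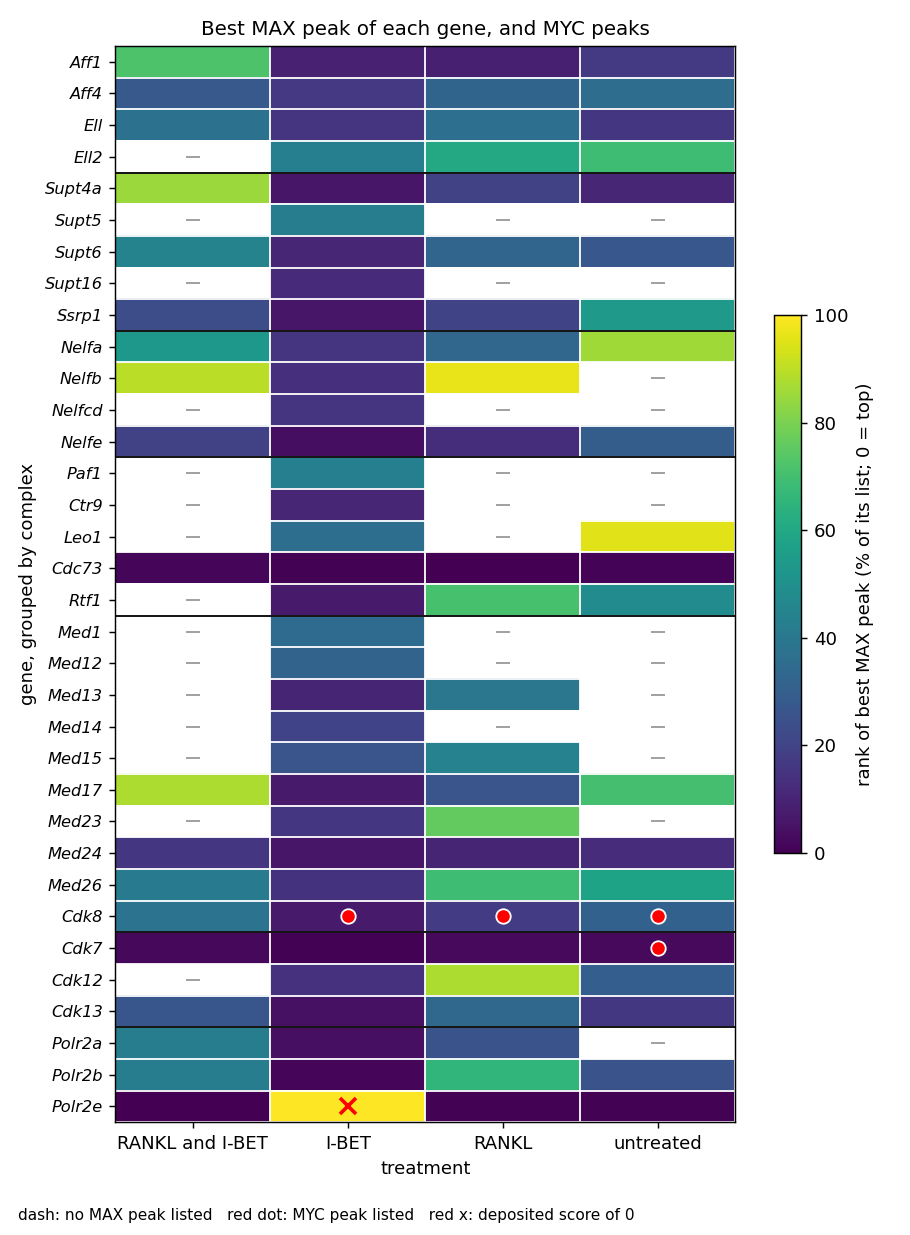
Rank of the best MAX peak of each gene as a percent of its list (colour, 0 is the top of the list) in the 4 treatments, with dashes where no MAX peak is listed and red dots where a MYC peak is. The I-BET column has no dash, and the red x marks Polr2e, whose I-BET peak has a deposited score of 0.

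In the super elongation complex 3 of 4 genes had a MAX peak with RANKL and I-BET, 4 of 4 with I-BET, 4 of 4 with RANKL and 4 of 4 in untreated cells. Aff4, the scaffold that joins P-TEFb to ELL proteins, had its best peak at rank 1761 with RANKL and I-BET, 6159 with I-BET, 3518 with RANKL and 3157 in untreated cells. The peak sat on the start site in each list, and its promoter holds CACGTG. Ell, an elongation factor that limits transient pausing, had 2 peaks with RANKL and I-BET, 9 with I-BET, 3 with RANKL and 2 in untreated cells. Its best ranks were 2364, 5647, 3990 and 1382 in that order. Beside the promoter peak, a site 10279 bp downstream of the start with RANKL and I-BET also stood in the I-BET and RANKL lists, but not in the untreated one.

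Aff1, the second scaffold, had the most peaks: 3 with RANKL and I-BET, 13 with I-BET, 4 with RANKL and 4 in untreated cells. The best of them ranked 4538, 3377, 940 and 1485 in that order. Its highest-ranked untreated peak (chr5:103774619-103775015, rank 1485) lay 20244 bp inside the gene from the nearest given start site, and the same region was covered in all 4 lists. Over the promoter windows of Aff1 the peak ranked 4880 with RANKL and I-BET, 7803 with I-BET and 5601 with RANKL. None was listed there in untreated cells. These windows do not lie at the annotated 5' end of Aff1. A peak at that end ranked 3377 with I-BET, 7971 with RANKL and 2739 in untreated cells, with none listed with RANKL and I-BET. It counts below as more than 5 kb from a start site, and Aff1 as a promoter without an untreated MAX peak. Ell2, a paralogue of Ell, ranked 15888 with I-BET, 6584 with RANKL and 6089 in untreated cells and was absent with RANKL and I-BET. Its untreated peak lay 1886 bp past the start, and the promoter peak was listed with I-BET and with RANKL.

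Of DSIF, SPT6 and FACT, 3 of 5 genes had a MAX peak with RANKL and I-BET, 5 of 5 with I-BET, 3 of 5 with RANKL and 3 of 5 in untreated cells. The partners within a complex differed. Supt4a, the small subunit of DSIF, ranked 5354 with RANKL and I-BET, 2165 with I-BET, 2099 with RANKL and 950 in untreated cells, with 1 peak over its promoter each time. Supt5, the large DSIF subunit and a target of P-TEFb, was listed with I-BET alone, at rank 15582. Ssrp1, a FACT subunit, ranked 1483 with RANKL and I-BET, 2260 with I-BET, 2246 with RANKL and 4799 in untreated cells, at a peak shared with P2rx3, meaning that it also lies within 1 kb of that gene. Supt16, its FACT partner, was listed with I-BET alone, at rank 4523 and shared with Chd8, and its promoter holds CACGTG.

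Supt6, a histone chaperone that moves with the polymerase, had a peak in every list, but not over its promoter. The shared site (chr11:78213129-78213640 in untreated cells) lay 32319 bp downstream of the start. It ranked 2829 with RANKL and I-BET, 3912 with I-BET, 3552 with RANKL and 2391 in untreated cells. A promoter peak was listed with I-BET at rank 17834, and it also lies within 1 kb of Sdf2.

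NELF holds the polymerase at the pause. MAX peaks were listed at 3 of its 4 genes with RANKL and I-BET, 4 with I-BET, 3 with RANKL and 2 in untreated cells. Nelfe, the RNA-binding subunit, ranked 1242 with RANKL and I-BET, 1390 with I-BET, 1443 with RANKL and 2606 in untreated cells, at a peak that lies within 1 kb of Skiv2l too. Nelfa ranked 3375, 5615, 3587 and 7567 in the same order. Nelfb ranked 5651 with RANKL and I-BET, 5086 with I-BET and 10524 with RANKL, the last near the bottom of its list, and was absent in untreated cells. The Nelfb peak is shared with Stpg3. Nelfcd was listed with I-BET alone, at rank 5674.

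The PAF1 complex, which rides with the elongating polymerase and promotes histone H2B ubiquitylation, had MAX at 1 of 5 genes with RANKL and I-BET, 5 of 5 with I-BET, 2 of 5 with RANKL and 3 of 5 in untreated cells. The gene in all 4 lists was Cdc73 (parafibromin), at rank 106 with RANKL and I-BET, 156 with I-BET, 42 with RANKL and 95 in untreated cells. Its promoter peak (chr1:143702616-143703227 in untreated cells) was in the top 2% of each list and covers both CACGCG matches. Rtf1 ranked 2628 with I-BET, 7734 with RANKL and 4263 in untreated cells and was absent with RANKL and I-BET. Paf1 and Ctr9, the core of the complex, were listed with I-BET alone, at ranks 15833 and 4006, and the Paf1 peak is shared with Med29. Leo1 had its I-BET peak over the promoter at rank 13242, while its untreated peak at rank 8427 lay near the 3' end, so the listed sites were not the same.

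Mediator genes had a MAX peak in 4 of 10 cases with RANKL and I-BET, 10 with I-BET, 7 with RANKL and 4 in untreated cells. Med17, a head subunit, ranked 5521 with RANKL and I-BET, 2660 with I-BET, 2892 with RANKL and 6236 in untreated cells, over a promoter with CACGTG. Med26, the contact to elongation factors, ranked 2620, 5317, 7520 and 5132 in the same order, over a promoter with CACGCG. Med24, a tail subunit, ranked 1005 with RANKL and I-BET, 2193 with I-BET, 1115 with RANKL and 1128 in untreated cells. Its peak (chr11:98710465-98711043 in untreated cells) lay inside the gene. A second internal peak was listed in all 4 treatments, and a peak at a gene end with I-BET alone, at rank 27070.

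Med13, Med15 and Med23 were listed with I-BET at ranks 3838, 9736 and 5856 and with RANKL at 4328, 4816 and 8294. Med13 belongs to the kinase module, and Med15 and Med23 to the tail that contacts activators. Med1, the contact for nuclear receptors, Med12 of the kinase module and the backbone subunit Med14 were listed with I-BET alone, at ranks 12791, 11764 and 7361. A MAX site lies 1387 bp beyond the extent of Med1 in untreated cells and was listed in all 4 treatments, just outside the window. At the other side of that limit, a Supt5 peak 839 bp beyond the gene was counted, with I-BET.

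Cdk8, the kinase of the Mediator kinase module, had 1 MAX peak with RANKL and I-BET, 3 with I-BET, 1 with RANKL and 2 in untreated cells. Its promoter peak was in every list, at ranks 2391, 2710, 1954 and 2953 in that order. Of the kinases of the polymerase tail, Cdk7, which phosphorylates the tail within TFIIH, ranked 146 with RANKL and I-BET, 245 with I-BET, 291 with RANKL and 232 in untreated cells. That places it in the top 3% of every MAX list. Cdk13 ranked 1697, 1706, 3642 and 1420 in the same order. Cdk12, the other partner of cyclin K, ranked 5237 with I-BET, 9533 with RANKL and 2656 in untreated cells and was absent with RANKL and I-BET. Its untreated peak (chr11:98202402-98203025) covers the annotated 5' end of the gene but not the promoter window, which lies further inside. Cdk12 therefore counts below as a promoter without an untreated MAX peak.

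Of the polymerase subunits, Polr2e, which is shared by all nuclear RNA polymerases, held rank 15 with RANKL and I-BET, 60 with RANKL and 47 in untreated cells. It has the highest-ranked MAX peak of all 34 genes in untreated cells (chr10:80039466-80040065). Its I-BET peak is 911 bp wide and has a deposited score of 0, which puts it at rank 36769. The I-BET MAX list holds 17 peaks with a score of 0, and each of the 17 overlaps an untreated peak ranked 116 or better, so nothing is read from this rank. Polr2b, the second-largest subunit, ranked 2644 with RANKL and I-BET, 607 with I-BET, 7181 with RANKL and 2248 in untreated cells, at a peak shared with Noa1. Polr2a, the largest subunit, which carries the phosphorylated tail, ranked 2668 with RANKL and I-BET, 1571 with I-BET and 2788 with RANKL, at a peak shared with Slc35g3, and was not listed in untreated cells.

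MYC peaks were few. MYC was listed at 0 of 34 genes with RANKL and I-BET, against 0.0366% of all genes. A count of 0 allows a share of up to 8.82% by the limit of 3 counts, and the exact Clopper-Pearson interval reaches 10.3%. With I-BET it was 1 of 34, against 0.292%, with RANKL 1 of 34, against 1.35%, and in untreated cells 2 of 34, against 1.42%. The promoter of Cdk7 had a MYC peak in untreated cells (chr13:100730920-100731177, rank 187 of 312), which lies over the CACGTG printed above and within the MAX peak. No MYC peak was listed there in the other 3 treatments, while the MAX peak stood in all 4 lists. Of all genes with an untreated MYC peak, 91.3% had none with I-BET and 51.9% none with RANKL.

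The other MYC site lies inside Cdk8, 29894 bp downstream of the start site in untreated cells (chr5:146260937-146261351). It ranked 89 of 136 with I-BET, 40 of 299 with RANKL and 46 of 312 in untreated cells, and its I-BET peak was 199 bp wide. A MAX peak overlapped it with I-BET and in untreated cells, at ranks 3854 and 2740. With RANKL no MAX peak was listed at the site although MYC was, and with both compounds neither was listed. Of all genes with a RANKL MYC peak, 97.6% had none with both compounds. No other protein-coding gene in the table lies within 1 kb of it.

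RANKL and I-BET together, set against RANKL alone, show MAX at these genes when the inhibitor accompanies the osteoclast signal. No gene was added (background 1.40% of all genes) and 6 were no longer listed (background 12.4%): Ell2, Rtf1, Med13, Med15, Med23 and Cdk12. Of the genes with a RANKL peak that is 6 of 25, against 36.0% of all genes with such a peak. Their best RANKL ranks lay between 4328 (Med13) and 9533 (Cdk12). With the 6307 top-ranked peaks of each list 3 genes were added and 2 lost, so the net direction turns at equal list length. Over the promoter windows 2 of 18 were lost, Ell2 and Rtf1, against 39.3% of all genes.

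Set against I-BET alone, RANKL and I-BET together had no gene added (background 0.00%) and 15 no longer listed (background 35.3%). They were Ell2, Supt5, Supt16, Nelfcd, Paf1, Ctr9, Leo1, Rtf1, Med1, Med12, Med13, Med14, Med15, Med23 and Cdk12, that is 15 of 34 against 60.0% of all genes with an I-BET peak. With equal numbers of peaks 1 was added and 7 lost. The gene added was Polr2e, through its I-BET score of 0.

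I-BET against untreated cells gives the inhibitor by itself. With I-BET 13 genes were listed that were not listed in untreated cells (background 29.0%), and no gene was lost (background 0.0594%). They were Supt5, Supt16, Nelfb, Nelfcd, Paf1, Ctr9, Med1, Med12, Med13, Med14, Med15, Med23 and Polr2a, every gene without an untreated MAX peak, against 41.3% of all genes without one. Polr2a (rank 1571), Med13, Ctr9 and Supt16 had the highest-ranked peaks among them, and Supt5, at 15582, and Paf1, at 15833, the lowest. With equal numbers of peaks 8 were added and 2 lost. The 2 were Ell2 and Polr2e, the latter through its I-BET score of 0. The backgrounds of genes added or lost, here and in the other comparisons, cover genes of every length. No background of like length was taken for them.

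With RANKL alone 5 genes were listed that were not listed in untreated cells (background 7.60%), Nelfb, Med13, Med15, Med23 and Polr2a, and Leo1 was no longer listed (background 2.92%). Of the 13 genes without an untreated peak that is 5, against 10.8% of all such genes. Polr2a had the highest-ranked of these RANKL peaks, at 2788 of 10889, and Nelfb the lowest. With equal numbers of peaks 4 were added and 5 lost, so the net direction turns. The comparisons with untreated cells share the untreated list.

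Peaks within these genes differed in place as well as in number. Joined over the 4 MAX lists, they formed 77 separate regions, of which 38 were listed with I-BET alone, 18 in all 4 treatments and 2 in untreated cells alone. These are 49.4%, 23.4% and 2.60% of the regions, against 62.5%, 16.1% and 0.243% of the 29627 regions formed in the same way over all genes, and the I-BET list is the longest. At a gene end, within 1 kb of either annotated end, lay 16 of 23 peaks with RANKL and I-BET (69.6%, 47.1 to 86.8), 43 of 75 with I-BET (57.3%, 45.4 to 68.7), 23 of 34 with RANKL (67.6%, 49.5 to 82.6) and 18 of 28 in untreated cells (64.3%, 44.1 to 81.4). The same shares over the peaks of all genes were 68.3%, 45.5%, 63.4% and 64.8%. The intervals treat peaks of the same gene as independent and may be too narrow, since Aff1 gave 13 and Ell 9 of the 75 I-BET peaks. Of the 64 I-BET peaks in genes with a given start site, 25 lay more than 5 kb from it, in 7 genes (39.1%, against 41.1% of the peaks of all genes with a start site). In untreated cells it was 8 of 25, in Aff1, Cdk13, Cdk8, Leo1 and Supt6 (32.0%, against 23.5%).

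**Figure D3:**
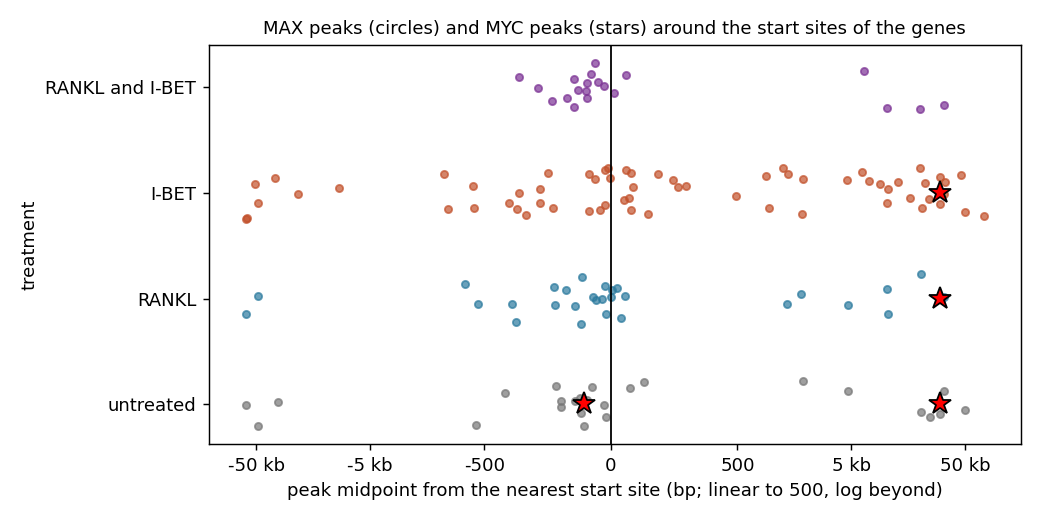
Distance of each peak midpoint from the nearest start site (x axis, in bp, linear to 500 bp and logarithmic beyond) for the 29 genes with a promoter window, with MAX peaks as circles and MYC peaks as stars, by treatment. Peaks gather within 500 bp of the start in all 4 treatments, and with I-BET 25 of 64 MAX peaks lie beyond 5 kb.

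Promoters with MAX in untreated cells mostly held CACGTG or its variant CACGCG. Either was found at 12 of the 14 genes with untreated MAX over a promoter window, against 43.4% of all such protein-coding genes. CACGTG was in 4 (all genes 19.4%): Aff4, Med17, Cdk8 and Cdk7. CACGCG was in 8 (all genes 29.1%): Ell, Ssrp1, Cdc73, Rtf1, Med26, Cdk13, Polr2b and Polr2e. Supt4a and Nelfa had a peak and neither motif. Of the 15 promoters without an untreated MAX peak 1, that of Supt16, held a match, against 14.1% of all such promoters. Aff1 and Cdk12 are among the 15 although an untreated MAX peak lies at their annotated 5' ends, outside these windows. All 15 were covered with I-BET, and of the 4685 promoters of all genes covered with I-BET but not in untreated cells 21.8% held a match. Over all 29 genes the count was 13, against 20.8% of the 17492 genes, of which 8.91% held CACGTG and 13.7% CACGCG. The windows of these genes are richer in GC (median 65.5% against 56.3%), and the part of GC content in the matches was not tested.

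The other treatments gave 11 of 16 promoters under a MAX peak with RANKL and I-BET (all genes 48.1%), 13 of 29 with I-BET (31.7%) and 12 of 18 with RANKL (41.2%). The CACGTG matches lay a median of 38.2 bp from the MAX midpoint with RANKL and I-BET (4 matches), 184 bp with I-BET (5), 75.8 bp with RANKL (4) and 91.5 bp in untreated cells (4). Over all promoters these medians were 61.0, 153, 79.0 and 62.5 bp. The more numerous CACGCG matches lay a median of 72.5 bp away with RANKL and I-BET (9 matches), 157.5 bp with I-BET (11), 101 bp with RANKL (10) and 96.0 bp in untreated cells (10), against 76.5, 155.5, 89.0 and 79.0 bp over all promoters. A match is a description of letters in the window and does not show that a protein binds them.

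**Figure D4:**
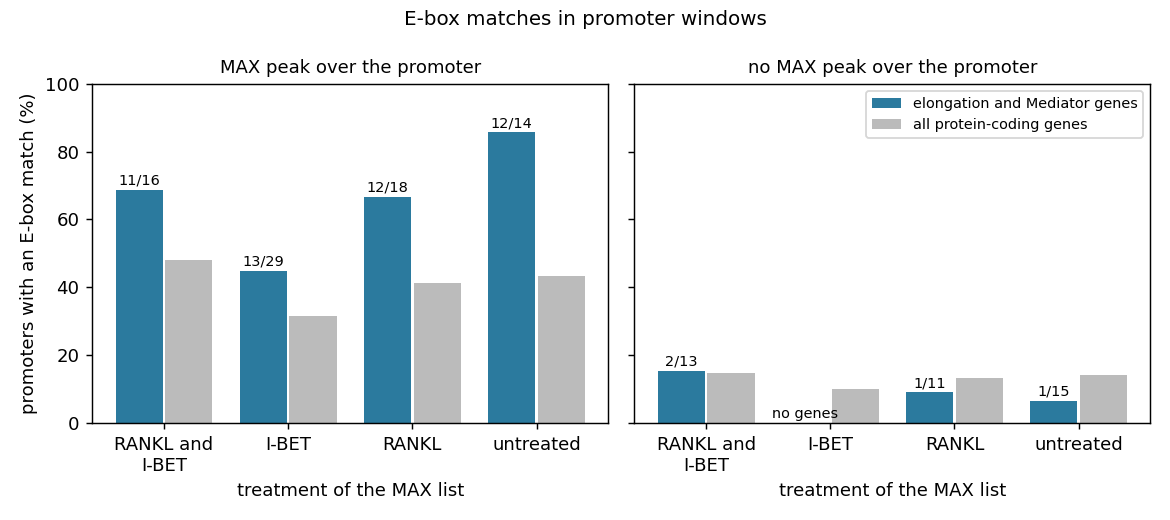
Share of promoter windows that hold CACGTG or CACGCG (percent, labelled E-box match), by treatment. Windows under a MAX peak are on the left and those without on the right, for the elongation and Mediator genes (blue, with counts) and all protein-coding genes (grey). In untreated cells 12 of 14 covered promoters hold a match, and 1 of 15 uncovered ones does.

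The ranks can be set beside those of genes at large. The best MAX peak of a gene stood at a median of 37.9% of the list with RANKL and I-BET (0 is the top), 13.1% with I-BET, 32.6% with RANKL and 29.5% in untreated cells. Over all genes with a peak the medians were 44.5%, 19.2%, 40.9% and 43.1%. The difference was not tested, and no median was taken over genes of like length. The I-BET median includes the Polr2e peak with its score of 0.

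Peaks listed in both of 2 treatments differed in width. With I-BET 25 of 26 matched peaks were wider than in untreated cells, against 91.9% of the 7913 matched peaks of the whole lists. The median width was 966 bp with I-BET against 478 bp untreated, with a median ratio of 1.92, against 1.81 over the whole lists. Ell had the highest ratio, whose promoter peak spanned 1797 bp with I-BET against 504 bp untreated, and the internal peak of Cdk13 was the exception, with 232 bp and 314 bp. With RANKL and I-BET 3 of 22 were wider than with RANKL alone (over all peaks 16.5%), with medians of 429.5 bp and 550.0 bp (median ratio 0.753, over all peaks 0.800). With RANKL and I-BET 0 of 23 were wider than with I-BET alone (over all peaks 3.61%, median ratio 0.437, over all peaks 0.479). RANKL alone gave 17 of 24 wider than untreated (over all peaks 68.1%, median ratio 1.12, over all peaks 1.12).

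**Figure D5:**
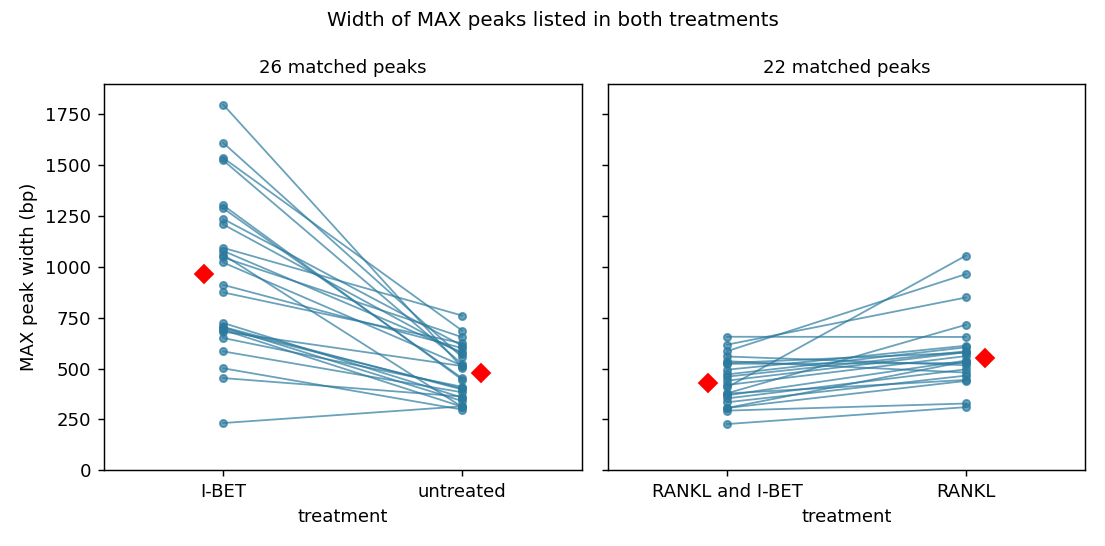
Width (bp) of each MAX peak of the elongation and Mediator genes that is matched in both treatments, joined by a line, for I-BET and untreated cells (left, 26 peaks) and for RANKL and I-BET and RANKL (right, 22 peaks), with red diamonds at the medians. Medians are 966 and 478 bp on the left and 429.5 and 550.0 bp on the right.

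Other genes of the same machinery, 91 in 7 lists, had a MAX peak in 34 cases with RANKL and I-BET (37.4%), 88 with I-BET (96.7%), 61 with RANKL (67.0%) and 52 in untreated cells (57.1%), to be read against the shares of all genes above. The genes without an I-BET MAX peak were Aff2, Aff3 and Ell3. Of the 23 other Mediator genes 7 had one with RANKL and I-BET, 23 with I-BET, 12 with RANKL and 11 in untreated cells. The other polymerase II subunits numbered 4, 10, 5 and 5 of 10 in the same order, and the Integrator complex, which cleaves paused transcripts, 8, 14, 10 and 9 of 14. General initiation factors had 2 of 8 with RANKL and I-BET, 8 of 8 with I-BET, 8 of 8 with RANKL and 5 of 8 in untreated cells. TFIIH genes other than Cdk7 had 4, 9, 6 and 5 of 9, and other super elongation complex genes 2, 4, 3 and 2 of 7. Other elongation and associated factors, a list that includes SAGA and termination genes, had 7, 20, 17 and 15 of 20.

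Among these, the highest-ranked untreated MAX peaks lay at Med11 (rank 296) and Med21 (672) of Mediator and at Mllt1 (536), the ENL protein of the super elongation complex. Supt3 (715), of the SAGA coactivator, shares its site with Runx2, and Tcea2 (1121) is a TFIIS gene. Further sites lay at Gtf2f2 (765) of TFIIF, Gtf2a1 (2204) of TFIIA, the polymerase subunits Polr2l (933) and Polr2j (4426), Gtf2h3 (1673) and Gtf2h1 (2464) of TFIIH, Ints6 (2484), Ints12 (2781) and Eaf2 (4025). The sites of Polr2l, Gtf2h3, Gtf2h1, Ints12 and Eaf2 are shared with Tspan4, Eif2b1, Hps5, Gstcd and Golgb1. MYC peaks were listed with RANKL at Xrn2, the exonuclease of termination, Gtf2a1, Med22 and Ints7, at ranks 95, 133, 196 and 288, and in untreated cells at Ints9, at rank 232. The Med22 peak is shared with the ribosomal protein gene Rpl7a, the Ints7 peak with Dtl and the Ints9 peak with Hmbox1.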

How the data were processed

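ChIP-seq peak lists for MYC and MAX in RAW264.7 cells were used as deposited. Per the submitters' processing notes, which name mm10 and GRCm38 as builds, the tools were MACS2 (2.1.1.20160309), Bowtie2 (2.3.4.1) and FastQC. Calling thresholds and the part of the input are not given in these notes or labels. The names of the deposited lists carry one tag for MYC and another for MAX, whose meaning is not stated, so MYC and MAX may have been called at different settings and their counts are not compared. The score of each peak is the authors' own value in the deposited lists, and it served only to rank peaks within a list, with ties broken by chromosome and start. Peak names join calls of 3 sets, numbered 3, 5 and 7, whose nature is not stated. Starts were raised by 1 to count from 1. Groups follow the sample titles.

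Peaks were matched to RefSeq genes and promoters (GRCm38.p6) by an overlap of at least 1 bp. The 8 genes with a peak that also lies within 1 kb of another protein-coding gene were kept. All 91 other pathway genes matched, 3 through a synonym in the table. The members, gene lists and rules were chosen with earlier results of these data known. All members were named, and of each other list the genes with a MYC peak and the 2 with the highest-ranked untreated MAX peak. No set test was run. Shares carry exact Clopper-Pearson 95% intervals, and those over peaks treat the peaks of a gene as independent. Python 3.11.15, numpy 2.4.6, pandas 2.3.3 and scipy 1.17.1 were used. The overlap code was tested on simulated data, where 200 of 200 genes given a peak among 21887 were recovered, with 0 differences from bedtools 2.31.1.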

Additional observations from a re-analysis of the deposited data

Results flagged for a closer look

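The count of elongation and Mediator genes with a MAX peak differed in opposite directions with I-BET: I-BET minus untreated was 13 (34 and 21 genes), and RANKL and I-BET minus RANKL was -6 (19 and 25 genes). With 1 list per treatment the difference was not tested. The MAX lists move the same way in length, with 36785 peaks for I-BET and 8839 for untreated cells, and 6307 for RANKL and I-BET and 10889 for RANKL. The genes at large moved the same way, with a MAX peak at 12858 and 6524 of 21887 genes for I-BET and untreated cells, and at 5139 and 7548 for RANKL and I-BET and RANKL. At 6307 peaks each the counts were 25 and 19 genes for I-BET and untreated cells, and 19 and 18 for RANKL and I-BET and RANKL. Over all genes they were then 5886 and 5069, and 5139 and 5044.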

How the results depend on the processing

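No paired analysis was possible because each antibody and treatment has 1 list. Of 192 recomputed values, 171 stayed within 1.5 times the reported count or within its interval. Among them were all values with 0 or 2.5 kb around genes, with the peak midpoint in the window or without peaks under 100 bp. The narrowest peak of these genes spans 199 bp, so the 28 values of the last setting could not change. Gene ends alone left 0 genes with a MYC peak with I-BET, 0 with RANKL and 1 in untreated cells, so that 0 and 1 MYC peaks overlapped MAX with I-BET and in untreated cells. With peaks above the median score of each list the MYC counts were 0 with I-BET and 1 in untreated cells, with 0 and 1 overlapping MAX. The same restriction gave 2 genes gained with RANKL and I-BET against RANKL, 1 gained against I-BET, 1 lost with I-BET against untreated and 3 lost with RANKL against untreated. Equal numbers of top-ranked MAX peaks gave 3 gained and 2 lost with RANKL and I-BET against RANKL, 1 gained and 7 lost against I-BET, 8 gained and 2 lost with I-BET against untreated, and 5 lost with RANKL against untreated. The share of I-BET peaks at a gene end was then 82.1%. Both restrictions let fewer peaks enter by construction, except that equal numbers keep all 6307 MAX peaks with RANKL and I-BET. In both, the gene gained with RANKL and I-BET against I-BET was Polr2e, through its I-BET score of 0. Polr2e was also among the genes lost with I-BET against untreated in both. Ranking scores of 0 first, added after the data were seen, gave 26 genes with I-BET at equal numbers in place of 25. Each count rests on 1 list, and depth is unknown.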

Other observations

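Some MAX sites lay just beyond the genes and were not counted, and they were chosen after their values were seen. Beyond Ell a site 1052 bp from the gene was listed with I-BET at rank 9225 (70593910 to 70595783 on chromosome 8), and a peak there was also listed with RANKL and I-BET and with RANKL, at ranks 4672 and 5209, but not within 2.5 kb in untreated cells. Beyond Med26 a site was listed in all 4 treatments, at ranks 4195 with RANKL and I-BET, 2556 with I-BET, 6115 with RANKL and 8330 in untreated cells. Med1, which has a MAX peak within its window with I-BET alone, had the site beyond its extent at ranks 3075, 2671, 2112 and 4152 in the same order. Beyond Supt5 a site 2469 bp from the gene was listed with I-BET at rank 3408. A peak there was also listed with RANKL, at rank 5904.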
